A study of Mus musculus with 4 samples.

Results

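Open chromatin inside exons and away from promoters was compared between day 2 (d2) and day 4 (d4) of mouse embryonic stem cell (mESC) differentiation. Merging every set of overlapping peaks (1 bp or more) from 4 ATAC-seq libraries gave 40910 union regions, of which 1942 lay more than 1000 bp from any annotated transcript start and overlapped an annotated exon (exonic distal regions). The members described here are the 580 exonic distal regions with a peak in both libraries of one time point and in neither library of the other, of which 438 were d2-only and 142 were d4-only. The members were selected on the peak calls themselves, so the calls and the enrichment behind them are given as a description without a test.

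ATAC-seq uses a transposase that cuts accessible DNA. The cells were wild-type ES-E14TG2a cells, an mESC line, in a serum-free cardiogenic differentiation, with 2 libraries at d2 and 2 at d4 from separate differentiation experiments. At d2 the culture had not yet received Activin A, BMP4 and VEGF, whereas at d4 it had, and the study looked for regulatory elements that open as the endothelial programme starts. No library came from d4 cells without these factors, so the effects of time and of the factors cannot be told apart. All libraries were made from 1 cell line in bulk and without sorting, and the d4 culture was a mixture of cell types. In such samples a smaller number of cells with an open region and less open DNA in each cell cannot be told apart.

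Exons are mostly read as the parts of a gene that stay in the mature RNA, either as coding sequence or as untranslated regions (UTRs). The same DNA can also be bound by transcription factors, and regulatory elements that overlap coding exons or UTRs are known in many genomes. Coding exons are richer in G and C than most introns and intergenic DNA. GATA factors, which recognise the core GATA, act in mesoderm, heart, blood and endothelial development.

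Short stretches of the members show these matches in place. All are from the mm10 (GRCm38) reference, 5′ to 3′ on the strand given, with 10 flanking bases in lower case on each side of the match in capitals. Those in coding exons of d4-only regions carry a GATA match, which means AGATAAG or TGATAAG on either strand no more than 100 bp from the summit. They come from the actin nucleator gene Cobl (exon 8 of 15, minus strand, chr11:12309629-12309655), the versican gene Vcan (exon 8 of 15, plus strand, chr13:89692764-89692790), the TIE2 ligand gene Angpt1 (exon 2 of 9, plus strand, chr15:42523539-42523565) and the pyruvate dehydrogenase phosphatase gene Pdp1 (exon 2 of 2, plus strand, chr4:11960969-11960995).
Cobl: accgcaaggaAGATAAGgaagagaaca
Vcan: tgctagaggtAGATAAGgtaggacttt
Angpt1: ctgcagtctgAGATAAGagactggttc
Pdp1: ccttaatctgTGATAAGttacctctgg
The d4-only region at Kdr, which encodes the VEGF receptor VEGFR2, held 2 GATA matches on the plus strand, at chr5:75962322-75962348 and chr5:75962416-75962442. This region overlaps the putative Kdr regulatory element that the study selected with these libraries in hand, so its presence among the members is not independent of that choice.
Kdr, first match: tggtagacctTGATAAGcctgggcctg
Kdr, second match: acattcccacAGATAAGgaggagcagt
The most frequent match of d2-only exonic regions was the 7 bases CCTGCTG of ZIC factors. It is shown in coding exons of the methyl-lysine reader gene L3mbtl3 (exon 20 of 22, plus strand, chr10:26280143-26280169), the peptidylarginine deiminase gene Padi4 (exon 12 of 16, plus strand, chr4:140750660-140750686), Disp2 (exon 8 of 8, plus strand, chr2:118790722-118790748) and the kinase gene Map3k11 (exon 7 of 12, minus strand, chr19:5696135-5696161).
L3mbtl3: acgggtggggCCTGCTGaggctgctgg
Padi4: ggggcctgcaCCTGCTGggcgctcagg
Disp2: ttttccagcgCCTGCTGccctgtggtg
Map3k11: tctcggtccaCCTGCTGcagtagcagc
A match is a run of letters and does not show that a factor was bound.

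The peak lists held 21299 to 26865 peaks per library. Read totals were not part of the lists, but the background coverage solved from them was 0.568 and 0.483 fragments or reads per base at d2 and 0.755 and 0.744 at d4, which is a measure that rises with the number and length of fragments and was higher at d4. The smallest pileup at a called summit was 6 at d2 and 7 at d4, the same in both replicates. A region without a call in a library may still be accessible there below this level, and d2-only and d4-only describe calls. No p is given between time points, because p = 0.333 is the smallest that an exact 2-sided permutation test can reach with 2 libraries in each. Intervals are 95% Wilson intervals of shares and Newcombe intervals of differences over regions, which are not replicates, and they cover counting error only.

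Exonic distal regions were called at d2 alone more often than at d4 alone. Of the 1942 exonic distal regions, 438 (22.6%, interval 20.8 to 24.5) were d2-only and 142 (7.31%, 6.24 to 8.56) were d4-only, against 13.8% and 9.93% of all union regions. A further 198 (10.2%) had a peak in all 4 libraries. The ratio of d2-only to d4-only regions was 3.08 (interval 2.55 to 3.73) among exonic distal regions. It was 0.946 (0.884 to 1.01) among intronic regions, 16.6% of which were d2-only and 17.5% d4-only. It was 1.06 (0.991 to 1.13) among intergenic regions, with 16.4% and 15.5%. Promoter regions, within 1000 bp of a start, also had more d2-only than d4-only calls, 9.87% against 2.74%, with a ratio of 3.61 (3.27 to 3.98). The exonic ratio and the ratio of intronic and intergenic regions together moved when a library was left out. In that case 1 peak suffices at the time point of that library. The exonic ratio ranged from 1.90 without d4 replicate 1 to 5.11 without d2 replicate 2 (1.91 without d4 replicate 2 and 4.51 without d2 replicate 1). The ratio of intronic and intergenic regions together, 1.00 with all libraries, ranged from 0.602 without d4 replicate 2 to 2.00 without d2 replicate 2 (0.703 without d4 replicate 1 and 1.49 without d2 replicate 1). The exonic ratio was the higher one in each case.

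A difference in the same direction was present over all distal peaks of each library. These peaks include those of the members, so the shares are not independent of the region counts. Of the distal peaks, 10.3% in d2 replicate 1 and 11.96% in d2 replicate 2 overlapped an exon. The shares at d4 were lower, at 6.05% for replicate 1 and 6.69% for replicate 2, without overlap between time points. This gives a d2 mean of 11.1% ± 1.17 (SD, n = 2) beside a d4 mean of 6.37% ± 0.452 (SD, n = 2). Counted over regions, 438 of 3871 d2-only distal regions were exonic (11.3%, interval 10.4 to 12.4), against 142 of 3566 d4-only ones (3.98%, 3.39 to 4.67). Distal regions with a peak in all 4 libraries were exonic in 198 of 1630 cases (12.1%, 10.6 to 13.8), near the d2-only share. The difference between the d2-only and d4-only shares was 7.33 percentage points (6.15 to 8.53). With the 15000 strongest peaks of each library, which sets an equal number of peaks, it was 6.94 points (5.28 to 8.68), and the ratio of d2-only to d4-only exonic regions was 2.12 (1.63 to 2.76), against 0.689 (0.644 to 0.736) for intronic and intergenic regions.

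**Figure D1:**
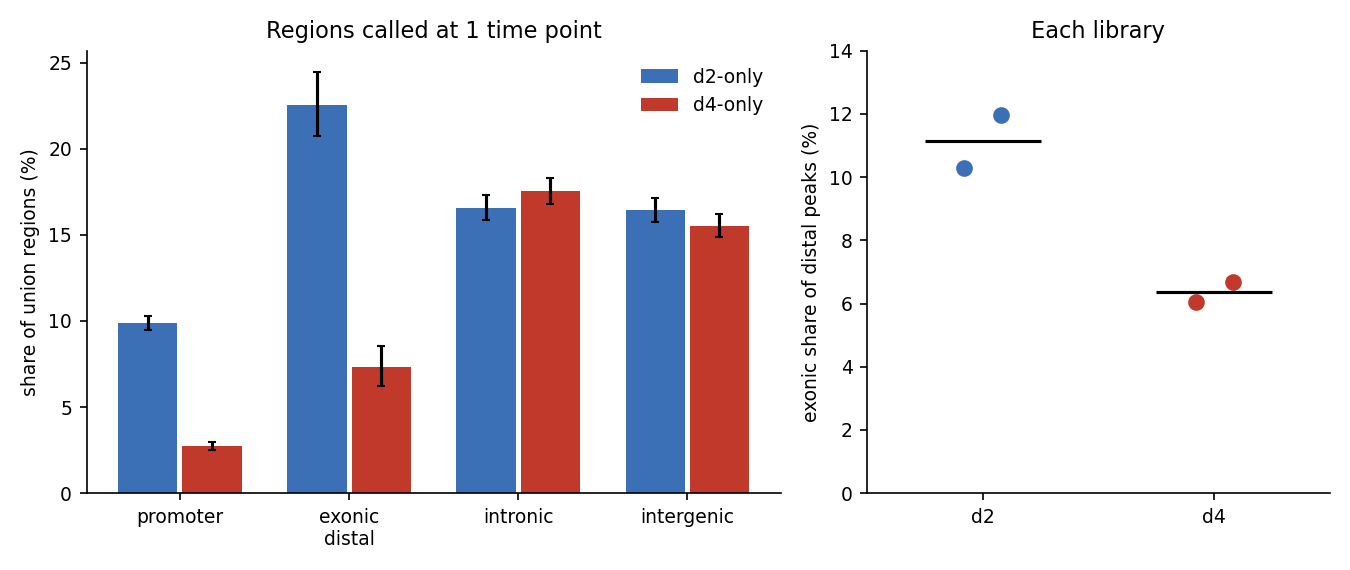
Left, share of union regions of each annotation (y axis, %) called at d2 only (blue) or d4 only (red), with 95% Wilson intervals; the exonic bars stand at 22.6% and 7.31%, whereas the intronic and intergenic pairs lie between 15.5% and 17.5%. Right, exonic share of the distal peaks of each library (y axis, %; points) with the mean of each time point (line), 11.1% at d2 and 6.37% at d4.

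The replicates gave similar enrichment for most members. Fold enrichment is the pileup over the local background at the summit, with 1 added to both, as the authors' peak caller wrote it. In d2-only exonic regions the median was 7.003 in d2 replicate 1 and 7.43 in d2 replicate 2, and in d4-only exonic regions it was 7.34 and 7.11 in the d4 libraries. The folds of the 2 replicates were within 1.5 times of each other in 396 of 438 d2-only (90.4%) and 133 of 142 d4-only regions (93.7%). The shares in intronic and intergenic regions were 88.0% and 87.9% for d2-only and 92.7% and 92.0% for d4-only. Members needed a call in both replicates, so this similarity is a description and is not independent of the rule. At the edge of the rule, the d2-only member nearest to a start lay 1001 bp away (Best4-ps, folds 6.69 and 8.67) and the nearest d2-only region left out lay at 998 bp (8.83 and 8.38). The nearest d4-only member lay at 1001 bp (Gm49010, 9.23 and 8.49) and the nearest d4-only region left out at 990 bp (13.9 and 11.7). At least 1 member of each set touched an exon with 1 base only, and 15 d2-only and 4 d4-only members had under 20 exon bases.

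**Figure D2:**
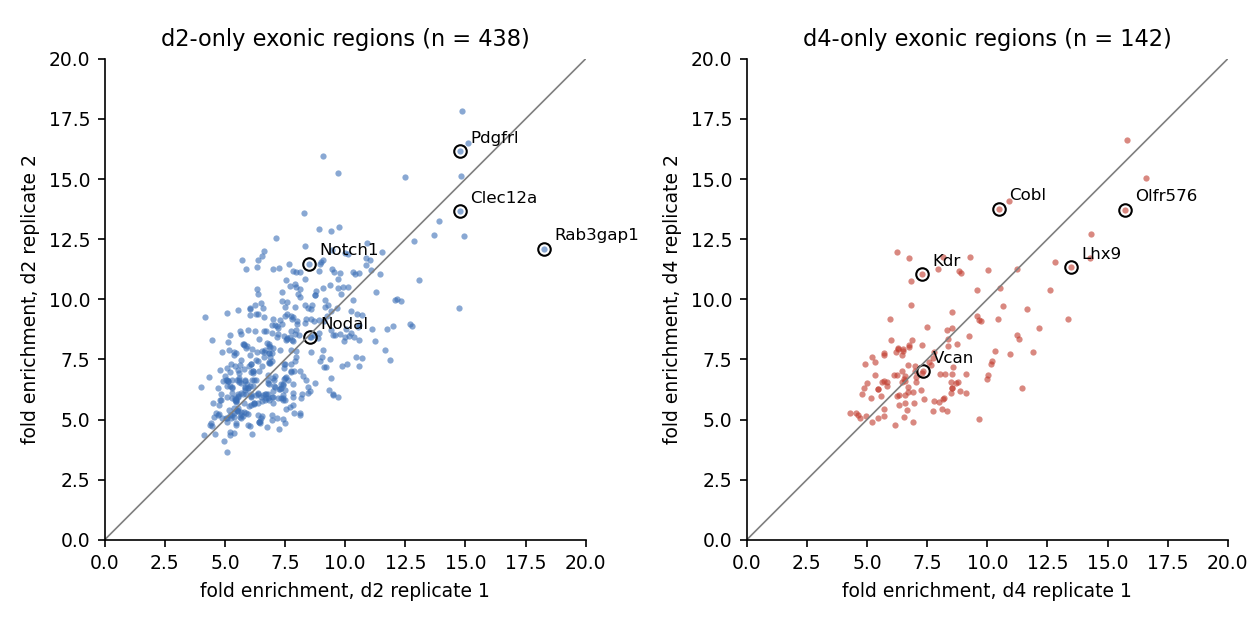
Fold enrichment (no unit) of each exonic member in replicate 1 (x axis) and replicate 2 (y axis) of its time point, d2-only on the left and d4-only on the right, with equality as a grey line and 5 members of each set circled and named. Most points lie close to the line, with 396 of 438 and 133 of 142 within 1.5 times.

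Among the d2-only members whose summit lay in an exon of a named protein-coding gene, the strongest by the lower fold was at Pdgfrl, a PDGF receptor-like gene, with folds of 14.8 in d2 replicate 1 and 16.2 in d2 replicate 2. It covered an exon of a noncoding transcript inside intron 2 of the coding one. The region at Rab3gap1, which encodes the catalytic subunit of a Rab3 GTPase-activating complex, likewise lay in an exon of a noncoding transcript, inside intron 7, and had folds of 18.3 and 12.1. L3mbtl3 followed in coding sequence with 14.9 and 12.6, and Tead1, the gene of a TEA domain transcription factor, in coding exon 5 of 14 with 13.1 and 10.8. The summit at Tead1 was the last base of that coding exon, and the region also overlapped an exon of a noncoding transcript. The others lay in 3′ UTRs. They belonged to the myeloid lectin receptor gene Clec12a (14.8 and 13.7), the Rab5 exchange factor gene Rin3 (10.9 and 11.7), the cytochrome P450 gene Cyp4f15 (10.4 and 11.1) and the neurotrophin receptor gene Ntrk3 (11.3 and 10.3).

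The strongest d4-only members of the same kind lay in the 3′ UTR exons of 2 olfactory receptor genes, Olfr576 (15.7 in d4 replicate 1 and 13.7 in d4 replicate 2) and Olfr140 (12.8 and 11.5). Both regions held GATA, TEAD and OCT matches, and neither gene had a promoter peak in any library. Coding exons followed at Lhx9, a LIM homeodomain factor gene (13.5 and 11.3), Cobl (10.5 and 13.8) and Mgarp (9.28 and 11.8). Of the semaphorin genes, which encode guidance cues, Sema5a (10.0 and 11.2) had its region in an exon of a noncoding transcript, with a GATA match. The summit at Sema6d (11.7 and 9.58) lay in the last exon of a noncoding transcript, with a TEAD match, and the region also touched coding sequence. Usp6nl, which encodes a Rab GTPase-activating protein, had folds of 10.6 and 9.73 in its 3′ UTR.

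The 2 sets lay in different parts of transcripts, which the rule did not use. Coding sequence was touched by 315 of 438 d2-only regions (71.9%, interval 67.5 to 75.9) and by 63 of 142 d4-only regions (44.4%, 36.5 to 52.6), a difference of -27.6 points (-36.4 to -18.2) for d4-only minus d2-only. Regions of all 4 libraries were like the d2-only ones, at 69.2%. The d4-only set held more regions in a 3′ UTR without coding sequence (31, 21.8%, against 46, 10.5%; difference 11.3 points, 4.52 to 19.2). It also held more regions in exons of noncoding transcripts alone (45, 31.7%, against 74, 16.9%; 14.8 points, 6.76 to 23.5). The summit itself lay in coding sequence in 202 d2-only (46.1%) and 31 d4-only regions (21.8%), and outside any exon in 25.6% and 26.1%. The interval of that last difference, -7.32 to 9.17 points, spanned 0.

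Each library showed the same order over all of its exonic distal peaks. Those peaks include the members' own, so this order is not independent of the region counts. Coding sequence was touched by 67.1% and 69.8% of these peaks in d2 replicates 1 and 2, and by 50.8% and 52.4% in d4 replicates 1 and 2. The means were 68.5% ± 1.90 (SD, n = 2) and 51.6% ± 1.17 (SD, n = 2), without overlap between time points.

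**Figure D3:**
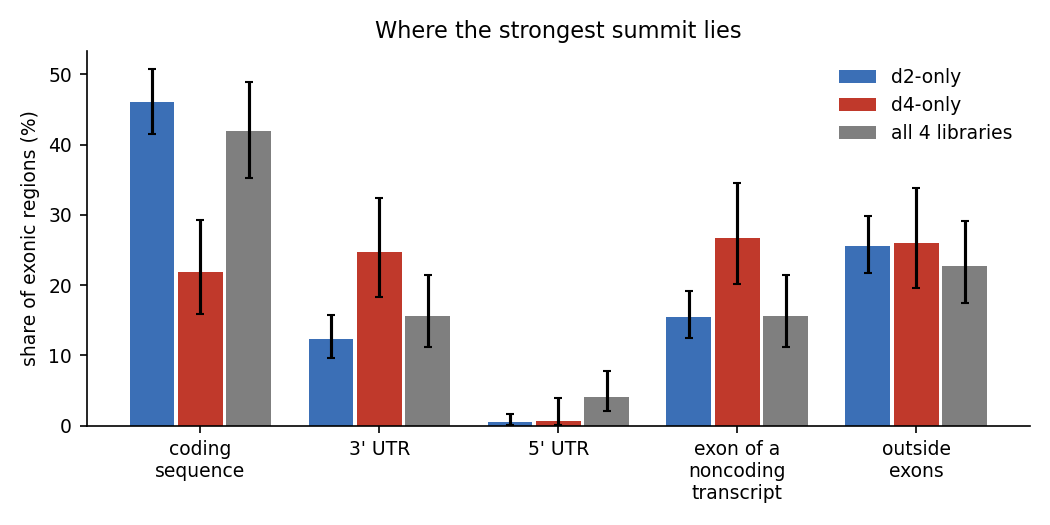
Share of exonic regions (y axis, %) whose strongest summit lies in each part of a transcript, for d2-only (blue), d4-only (red) and exonic regions of all 4 libraries (grey), with 95% Wilson intervals. Coding sequence holds 46.1% of d2-only and 21.8% of d4-only summits, and the order is the opposite in 3′ UTRs and in exons of noncoding transcripts.

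The genes that hosted the members also differed in type. Protein-coding genes hosted 387 of the d2-only (88.4%) and 106 of the d4-only regions (74.6%), and long intergenic noncoding RNA genes 23 (5.25%) and 22 (15.5%), a difference of 10.2 points (4.62 to 17.3) for the latter. Of the regions in exons of noncoding transcripts alone, 23 of 74 d2-only and 9 of 45 d4-only ones belonged to protein-coding genes. All 9 of the d4-only and 21 of the d2-only ones of that kind lay inside an intron of a coding transcript. Exonic in the annotation is therefore intronic for the protein in these members, Kdr and Sema5a among them. The host gene had a promoter region called in all 4 libraries in 45.7% of d2-only and 44.4% of d4-only members, and no promoter peak in 25.8% and 31.7%. The intervals of both differences spanned 0 (-10.5 to 8.12 and -2.39 to 14.8 points).

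Base composition separated the sets. Within 100 bp of the summit, the median GC content was 59.7% in d2-only and 52.2% in d4-only exonic regions, and the median ratio of observed to expected CpG was 0.416 and 0.185. CpG-rich windows, with GC above 50% and a ratio above 0.6, made up 134 of 438 d2-only (30.6%, interval 26.5 to 35.1) and 7 of 142 d4-only regions (4.93%, 2.41 to 9.83). They made up 48.5% of the exonic regions of all 4 libraries. In intronic and intergenic regions the median GC was 52.7% at d2-only and 50.7% at d4-only, so the d4-only exonic set was near other d4-only regions. All exonic distal regions together had a median GC of 58.7% and a median CpG ratio of 0.399. Exonic regions of all 4 libraries had 61.9% and 0.592. The d2-only exonic set thus stood apart from other d2-only distal regions but was near exonic regions in general. Over all exonic distal peaks of a library the median GC was 60.2% and 61.2% at d2 and 57.2% and 56.7% at d4.

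The difference in exonic share between d2-only and d4-only regions varied with GC content. Among distal regions with at most 50% GC, 44 of 1154 d2-only (3.81%) and 53 of 1592 d4-only regions (3.33%) were exonic, a difference of 0.484 points whose interval spanned 0 (-0.903 to 1.97). The difference was 2.71 points (1.05 to 4.45) over 50 to 55% GC and 6.93 points (3.91 to 9.78) over 55 to 60% GC. Above 60% GC, 213 of 657 d2-only (32.4%) and 16 of 136 d4-only regions (11.8%) were exonic, a difference of 20.7 points (13.3 to 26.4). These classes of GC content were chosen after the values were seen. The distal peaks outside exons also had a higher median GC at d2 (53.2% and 54.2%) than at d4 (51.7% in both libraries), and the part of this shift in the exonic result was not tested.

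**Figure D4:**
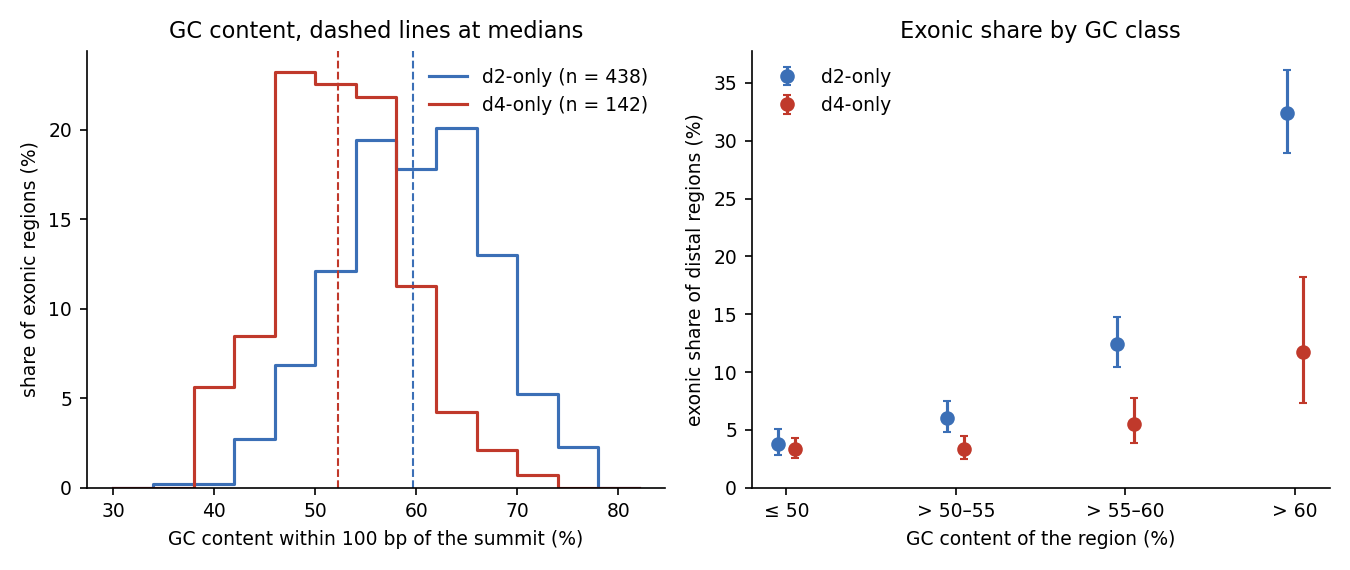
Left, distribution of GC content within 100 bp of the summit (x axis, %) over d2-only (blue) and d4-only (red) exonic regions (y axis, % of the set), with medians at 59.7% and 52.2%. Right, share of distal regions that are exonic (y axis, %) in 4 classes of GC content (x axis) with 95% Wilson intervals; the sets lie together at 3.81% and 3.33% in the lowest class and apart at 32.4% and 11.8% in the highest.

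GATA matches were the largest sequence difference among the 23 motifs searched. A GATA match was found near the summit, within 100 bp, in 41 of 142 d4-only exonic regions (28.9%, interval 22.1 to 36.8) and in 3 of 438 d2-only ones (0.685%, 0.233 to 1.99), a difference of 28.2 points (21.2 to 36.1). All union regions together had 7.20%. The 3 d2-only regions were at Zdhhc6, Igf2bp2 and Nrf1, genes named after their values were seen. In d4-only intronic and intergenic regions the share was 31.7%, and the interval of the difference spanned 0 (-2.84 points, -9.84 to 5.24). Within the d4-only exonic set, 21 of 53 regions with at most 50% GC had a match (39.6%), and 2 of 16 regions above 60% GC (12.5%). The matches were seldom in coding sequence, which 63 of the 142 d4-only exonic regions touched and which held the summit in 31. Of the 41 regions, 24 had the match inside an exon and 4 inside coding sequence, those 4 being printed above.

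The libraries showed the GATA difference one by one. Peaks of the members are among those counted, so these shares are not independent of the region counts. Of the exonic distal peaks, 1.19% and 0.809% held a match at d2 and 10.1% and 12.6% at d4, with means of 0.999% ± 0.269 (SD, n = 2) and 11.4% ± 1.77 (SD, n = 2). The other distal peaks had more in every library, with 3.44% and 3.23% at d2 and 19.6% and 20.4% at d4.

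Other motifs were also more frequent in d4-only than in d2-only exonic regions. The TEAD match GGAATGT, of the factors that partner with YAP, was in 13.4% of d4-only and 1.60% of d2-only regions (difference 11.8 points, 6.85 to 18.4). TCF and LEF factors of the Wnt pathway (CTTTGAT or CTTTGAA) had 14.8% and 5.71% (9.08 points, 3.54 to 16.1), and forkhead factors (TGTTTAC) 7.04% and 0.685% (6.36 points, 2.93 to 11.8). AP-1, the JUN and FOS dimers (TGAGTCA), had 9.15% and 2.97% (6.19 points, 1.94 to 12.2). RBPJ of the Notch pathway (GTGGGAA) had 6.34% and 2.74% (3.60 points, 0.0263 to 8.99). For ETS factors, which include ERG, FLI1 and ETV2 (CAGGAAGT or CCGGAAGT), the shares of 4.93% and 3.42% were not resolved (interval of the difference -1.81 to 6.58). Over all union regions the shares were 3.75% for TEAD, 6.19% for TCF-LEF, 3.15% for forkhead, 4.74% for AP-1, 4.62% for RBPJ and 5.13% for ETS. In d4-only intronic and intergenic regions they were 10.7%, 10.6%, 7.94%, 10.0%, 5.70% and 6.43% in the same order. For each of these motifs the interval of the difference between d4-only exonic and d4-only intronic and intergenic regions spanned 0.

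The SP-KLF match GGGCGGGG or GGGTGGGG was the one motif with a higher d2-only share beyond its interval. It was in 62 d2-only (14.2%) and 3 d4-only regions (2.11%), a difference of -12.0 points (-15.9 to -7.14) for d4-only minus d2-only, beside 17.9% of all union regions. These letters are all G and C but for 1 base at most. ZIC matches were in 92 d2-only (21.005%) and 21 d4-only regions (14.8%), with an interval of the difference that spanned 0 (-12.6 to 1.42), and in 14.3% of all regions. CTCF, the insulator factor, had 8.45% and 3.52% (-8.52 to 0.0689).

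Several motifs were scarcer in exonic than in other d2-only regions, those of OCT, SOX and OTX factors among them. The OCT match ATGCAAA was in 20 of 438 d2-only exonic regions (4.57%) and 338 of 3433 d2-only intronic and intergenic ones (9.85%), a difference of -5.28 points (-7.18 to -2.71). The SOX matches ACAATGG or ACAAAGG had 8.90% and 16.9% (-8.02 points, -10.7 to -4.75), and the OTX matches CTAATCC or TTAATCC 4.11% and 9.001% (-4.89 points, -6.69 to -2.42). GATA (-2.26 points, -3.02 to -0.850), forkhead (-1.99 points, -2.74 to -0.597) and TCF-LEF matches (-3.67 points, -5.75 to -0.927) were scarcer too. ESRRB matches (CAAGGTCA), of an orphan nuclear receptor of pluripotent cells, had 1.83% and 1.54%, and the interval of the difference spanned 0 (-0.731 to 2.06), as did that of the composite OCT-SOX motif (-1.003 to 0.228). Within the classes up to 60% GC, the intervals of the OCT, SOX, OTX, GATA, forkhead and TCF-LEF differences spanned 0. Above 60% GC, those for OCT, forkhead and TCF-LEF did so too. There SOX (3.29% against 10.6%, difference -7.30 points, -10.9 to -3.11) and OTX (0.469% against 4.05%, -3.58 points, -5.88 to -0.985) stayed lower in exonic regions, as did GATA (-2.25 points, -4.10 to -0.206). Against d4-only exonic regions, the interval of the difference spanned 0 for each of OCT, SOX and OTX.

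**Figure D5:**
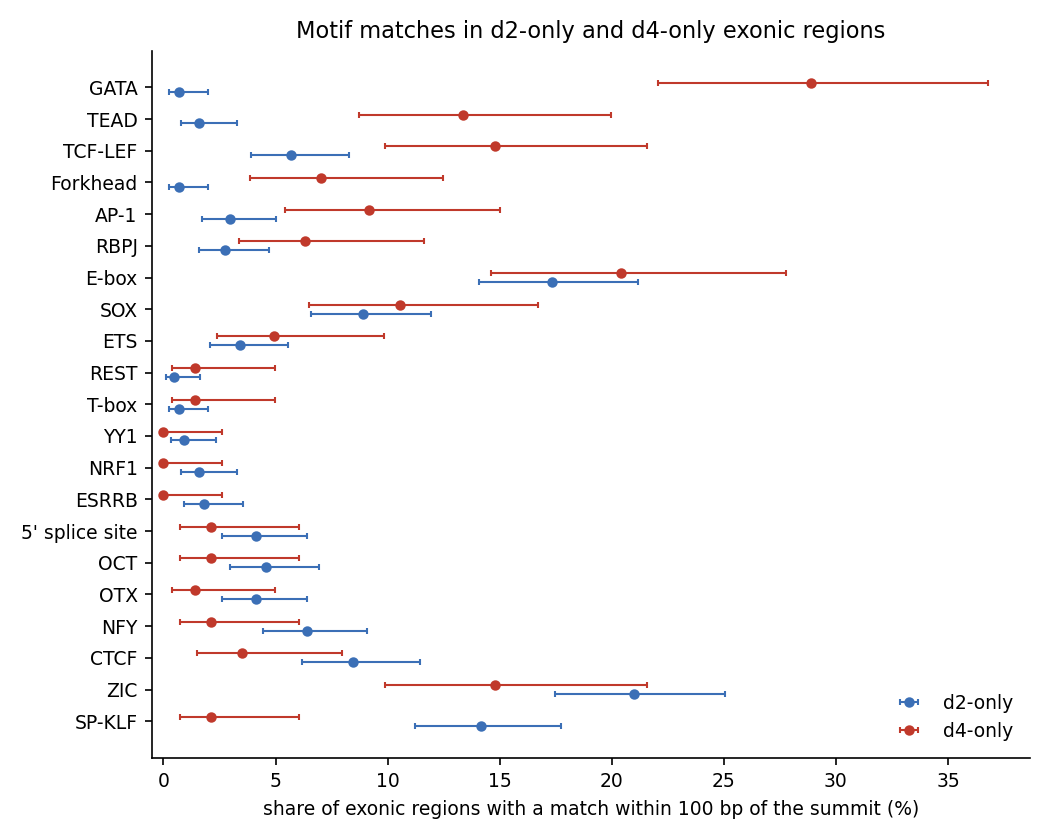
Share of exonic regions with a match within 100 bp of the summit (x axis, %) for 21 of the 23 motifs (y axis; the composite motifs E-box-GATA and OCT-SOX, each in at most 1 member of a set, are left out), in d2-only (blue) and d4-only (red) regions with 95% Wilson intervals. GATA stands at 28.9% against 0.685%, and SP-KLF at 2.11% against 14.2%.

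By gene, 437 of the 1802 genes with an exonic distal region (24.3%) had at least 1 d2-only region and 144 (7.99%) had at least 1 d4-only region. Ntrk3 was the 1 gene with both, and both lay in its long last exon, the d4-only one with folds of 8.33 and 8.71. With 1942 exonic distal regions for 1802 genes, most genes had a single region and could not have both, so this is not read as a result. Grin2c, an NMDA receptor subunit gene, had 4 d2-only regions and no other exonic region, 3 of them with their summit in coding sequence, with folds between 5.19 and 12.5 over both libraries. A further 9 genes had 2 each, among them Bcl11b, a zinc finger factor gene, Cyp26c1, which encodes a retinoic acid-degrading enzyme, Dlgap1, a synaptic scaffold gene, Gm44913 and L3mbtl3. Both Bcl11b regions lay in coding exon 4 of 4, with folds of 7.82 and 6.48 for the first and 5.49 and 5.41 for the second. The 1 gene with 2 d4-only regions was Tbc1d5, a Rab GTPase-activating gene linked to retromer, and each region held a GATA and a TCF-LEF match (folds 6.75 and 8.12, and 6.45 and 7.69).

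Endothelial genes had exonic regions of both kinds. Of 60 listed genes, 18 had an exonic distal region, 6 of them a d2-only one and 2 a d4-only one. These counts stand beside 24.3% d2-only and 7.99% d4-only over all genes with an exonic distal region, and they are not read as a difference. The d4-only region at Kdr (chr5:75962259-75962568) had a fold of 7.27 in replicate 1 and 11.03 in replicate 2 of d4, with pileups of 14 and 24. It lay in exon 10 of 10 of a noncoding transcript, inside intron 10 of the coding one and 15890 bp from the nearest start, and held TEAD and RBPJ matches besides GATA. The d4-only region at Stab2, a scavenger receptor gene of sinusoidal endothelium, had folds of 8.90 and 11.1, and it too overlapped an exon of a noncoding transcript, with its summit outside the exon.

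Of the 6 endothelial genes with a d2-only region, 4 had it over coding sequence. They were Flt4, the VEGFR3 gene (6.99 in d2 replicate 1 and 7.97 in d2 replicate 2), Notch1 (8.51 and 11.5), Rasip1 (8.35 and 9.76) and Nrp2, a VEGF co-receptor gene (6.28 and 7.47), although the summit at Nrp2 lay outside the exon. The others were Efnb2, the ephrin-B2 gene, in its 3′ UTR (5.79 and 8.16) and Vwf, the von Willebrand factor gene, in an exon of a noncoding transcript (5.14 and 6.61). None of the 6 regions held a GATA match, which only 0.685% of all d2-only exonic regions had. A d2-only exonic call says nothing of the expression of these genes.

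Of the study's list of 252 endothelial markers of Tbx1Cre-sorted embryonic cells, which was not made from these libraries, 28 genes had an exonic distal region. Of these, 7 had a d2-only region (Afap1l1, Arhgap31, Flt4, Notch1, Nrp2, Rasip1 and Sh2d3c) and 2 had a d4-only one (Kdr and Klhl6). These shares stand beside 24.3% and 7.99% of all genes with an exonic distal region.

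The other cell type lists held few such genes, and their counts stand beside 24.3% d2-only and 7.99% d4-only over all genes with an exonic distal region. Among early mesoderm genes, 5 had an exonic distal region. That of Nodal, a TGF-beta ligand gene, was d2-only in coding exon 2 of 3 (8.53 and 8.42), and that of Cdx2, a caudal homeobox gene, was d4-only in the 3′ UTR (7.30 and 6.94). Of 6 haematopoietic genes, Runx1 (7.59 and 9.90) and Zfpm1, which encodes a GATA cofactor (6.39 and 10.2), had d2-only regions in their last coding exons, with 69.2% and 75.6% GC. Of 6 neural genes, Nkx6-1, a homeobox gene, had a d2-only one (6.15 and 6.38) that touched its last coding exon. Neither the 1 pluripotency gene, the 4 cardiac nor the 4 endoderm genes with an exonic distal region had one called at 1 time point only, and of the 3 mesenchymal and matrix genes Vcan had a d4-only one (7.31 and 6.998). None of the 30 ubiquitously expressed genes had an exonic distal region, and the labelled cell type could not be checked from these peaks.

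Gene families were counted in the same way, beside the same 24.3% and 7.99% over all genes. At 7.99%, a family of this size would hold few genes with a d4-only region, so a count of 0 is not read as a difference, and not every family counted is given. Of 30 Zfp zinc finger genes with an exonic distal region, 12 had a d2-only one and 0 a d4-only one, and of 17 kinesin, myosin, dynein, spectrin and plectin genes, 8 and 0. Developmental factor genes (homeobox, SOX, forkhead, T-box, PAX, ZIC and GATA) numbered 43, with d2-only regions at 7 and d4-only regions at Cdx2, Lhx9 and Pou1f1. Of 17 ephrin, semaphorin, plexin, Notch and teneurin genes, 4 had a d2-only and 3 a d4-only region, the latter Ephb1, Sema5a and Sema6d. Of 25 protocadherin genes 1 had a d2-only region (Pcdh17), of 30 solute carrier genes 5 had a d2-only and 2 a d4-only one, of 8 chromatin enzyme genes 2 and 1, and of 2 histone genes none.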

How the data were processed

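ATAC-seq peak lists of 4 libraries were used, grouped as d2 and d4 by their labels. Per the labels and the methods of the study, the authors used cutadapt for trimming and Bowtie2 for alignment to mm10. Duplicates, mitochondrial reads and reads with several alignments were dropped, so repeated sequence can be under-represented. MACS2 was run on each library alone, with no control and no pooling, and peaks on the blacklist were taken out. The deposited fold enrichment is a ratio of pileup to local background at the summit, and the deposited −log10 q and −log10 p come from the same caller, with q below 0.001 throughout. The deposited score is the q value rescaled and was not used. Depth was solved from the fold and p of each peak, which gave whole pileups for 100% of peaks (within 0.01 in −log10 p).

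Regions were annotated with GENCODE release M 21 in Python 3.11.15 with numpy 2.4.6. Each region used the summit of its strongest peak, a window of 100 bp on each side and 23 motifs on both strands. Coordinates are 1-based. Named members were the 8 d2-only and 8 d4-only regions with the highest lower fold and a summit in an exon of a named protein-coding gene, the genes of 6 cell type lists with such a region, up to 5 genes per direction with at least 2 regions, the study's Kdr element, and for the sequences up to 6 coding matches a set, of which those of Samd12 and Mef2d are not printed. The Kdr sequences, in a noncoding exon, were added after the values were seen. Members, lists, motifs and tests were chosen with earlier results of these data known. Functions were tested on simulated data. Genes named from the other lists and families were chosen after their values were seen. The alternatives required 50% of both peaks to overlap, raised the limit on −log10 q to 5 and to 10, kept the top 15000 peaks, and left out each library in turn. Others were promoters within 2500 bp, the summit or most bases in exons, protein-coding genes alone, windows of 50 and 250 bp, and classes of GC content, the last added after seeing the data. Of the gene families counted, 1 is not reported here.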

Additional observations from a re-analysis of the deposited data

How the results depend on the processing

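The counts of d2-only and d4-only exonic regions follow the number of peaks kept. They were 186 and 57 at −log10 q of at least 10, and 174 and 82 with the 15000 strongest peaks of each library, where the ratio was 2.12. Leaving out a library lets 1 peak suffice at its time point, which raises that count by construction. The d2-only count then ranged from 492 to 818, the d4-only count from 160 to 262, and their ratio from 1.90 (without d4 replicate 1) to 5.11 (without d2 replicate 2).

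The exonic share of d2-only distal regions ranged from 10.2% to 11.9% and the difference to the d4-only share from 5.94 to 7.64 points with a library left out. With promoters within 2500 bp the share was 9.45% and the difference 6.05 points. With the summit in an exon the d2-only and d4-only shares were 8.42% and 2.94% and the difference 5.48 points, with most bases in exons 8.32%, 2.83% and 5.49 points, and with protein-coding genes alone 10.00% and 2.97%. By GC content the difference was 0.484 points at most 50%, 2.71 over 50 to 55% and 20.7 above 60%. No difference changed its sign.

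The median GC of d2-only exonic regions was 61.2% with the summit in an exon and 61.7% with most bases there, and the median CpG ratio 0.476 and 0.484, against 0.360 with the 15000 strongest peaks. The d4-only CpG ratio ranged from 0.1999 to 0.224 (without d4 replicate 1) with a library left out. The GATA share of d4-only exonic regions ranged from 19.8% (without d4 replicate 2) to 26.3% with a library left out. In windows of 50 bp it was 19.0% and that of d2-only regions 0% (interval 0 to 0.869). In windows of 250 bp the 2 shares were 38.7% and 3.88%.

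No paired analysis was possible because the region counts come from no test, and the labels do not say whether equal replicate numbers mark 1 differentiation experiment. Taken within replicate numbers 1 and 2, d2 minus d4 was 4.25 and 5.27 points for the exonic share of distal peaks, 16.3 and 17.4 points for those touching coding sequence and -8.93 and -11.8 points for a GATA match. Depth limits the weakest calls, as the smallest pileups were 6 and 7.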
